A study of Homo sapiens with 60 samples.

Results

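The genes described here are TOP1, TOP1MT, TOP2A, TOP2B, TOP3A, TOP3B, TDP1 and TDP2, which encode 6 human topoisomerases and 2 tyrosyl-DNA phosphodiesterases. They were taken by symbol from the Ensembl identifiers of a count table and are 8 of its 58395 rows. All 8 passed the filter on low counts, which left 18985 genes for testing.

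Topoisomerases relax and untangle DNA by cutting it, holding the cut end through a tyrosine and sealing the cut again. Topotecan traps topoisomerase I while it holds DNA, and TDP1 removes the protein remnant from such an end, while TDP2 acts mainly on ends held by the type II enzymes TOP2A and TOP2B. Other enzymes work in parallel with TDP1, among them nucleases that cut the damaged strand away and proteases that shorten the trapped protein.

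RNA was measured in HEK293A, a human embryonic kidney line in which TDP1 had been targeted by CRISPR/Cas9 with guides against coding exons, and from which came the clones C6, F7 and G6. Cells of a clone received nothing, or for 5 to 5.5 hours 0.1% DMSO, topotecan at 100 nM with 0.1% DMSO, OL9-119 at 5 µM in 0.1% DMSO, or topotecan at 100 nM with OL9-119 at 5 µM (the combination, for which the labels name no DMSO). There were 4 biological replicates in each of the 15 groups, so that each treatment had 12 libraries and the series 60. Every library came from knockout cells, each line is 1 clone, and wild-type cells were not used here, so that no value below measures the effect of the knockout. Poly(A) RNA of whole cultures was counted, in which fewer cells of a type and less RNA per cell cannot be told apart.

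The libraries held 4.62 to 20.9 M counts, with a median of 11.4 M. After thinning to 4.5 M counts, 14 libraries held under 20000 detected genes, 10 of them from clone C6 and 4 from G6, and the other 46 held 20162 to 23589. These 14 were spread over all 5 treatments, with 2 to 4 libraries in each. Of genes typical of HEK293 lines (kidney epithelial and neuronal), 10 of 10 had a mean of at least 1 CPM (counts per 1 M counts of the scaled library), and their sum ran from 1453 to 2429 CPM over the libraries. The sum was 8 to 27.4 CPM for 9 blood cell markers, 15.4 to 46.1 CPM for 8 fibroblast markers, of which COL1A1 at 27.0 CPM on average was the highest, and 0 to 3.88 CPM for 8 hepatocyte markers.

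The 8 genes differed widely in level. To compare genes, CPM values were divided by the length of the gene's merged exons in kb. In the 12 DMSO libraries TOP2A, the type II enzyme of dividing cells, was highest at 205 ± 27.2 CPM per kb (SD), followed by TOP1, the main nuclear type I enzyme, at 109 ± 25.5 CPM per kb. TOP2B, the type II enzyme that non-dividing cells also make, stood at 34.5 ± 10.7 CPM per kb and TDP2 at 17.8 ± 4.72 CPM per kb. TOP3A, which works with the BLM helicase and also in mitochondria, stood at 9.42 ± 1.22 CPM per kb. The last 3 lay within their spread of one another: TOP1MT, the mitochondrial type I enzyme, at 5.37 ± 0.717, TDP1 at 5.10 ± 0.868, and TOP3B, which acts on both DNA and RNA, at 4.29 ± 0.610 CPM per kb. Divided by the longest annotated transcript instead, TOP1MT moved to 17.0 CPM per kb, above TOP3A at 14.8, and TDP2 to 25.8 CPM per kb, while TDP1 at 8.57 and TOP3B at 6.84 CPM per kb stayed lowest.

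**Figure D1:**
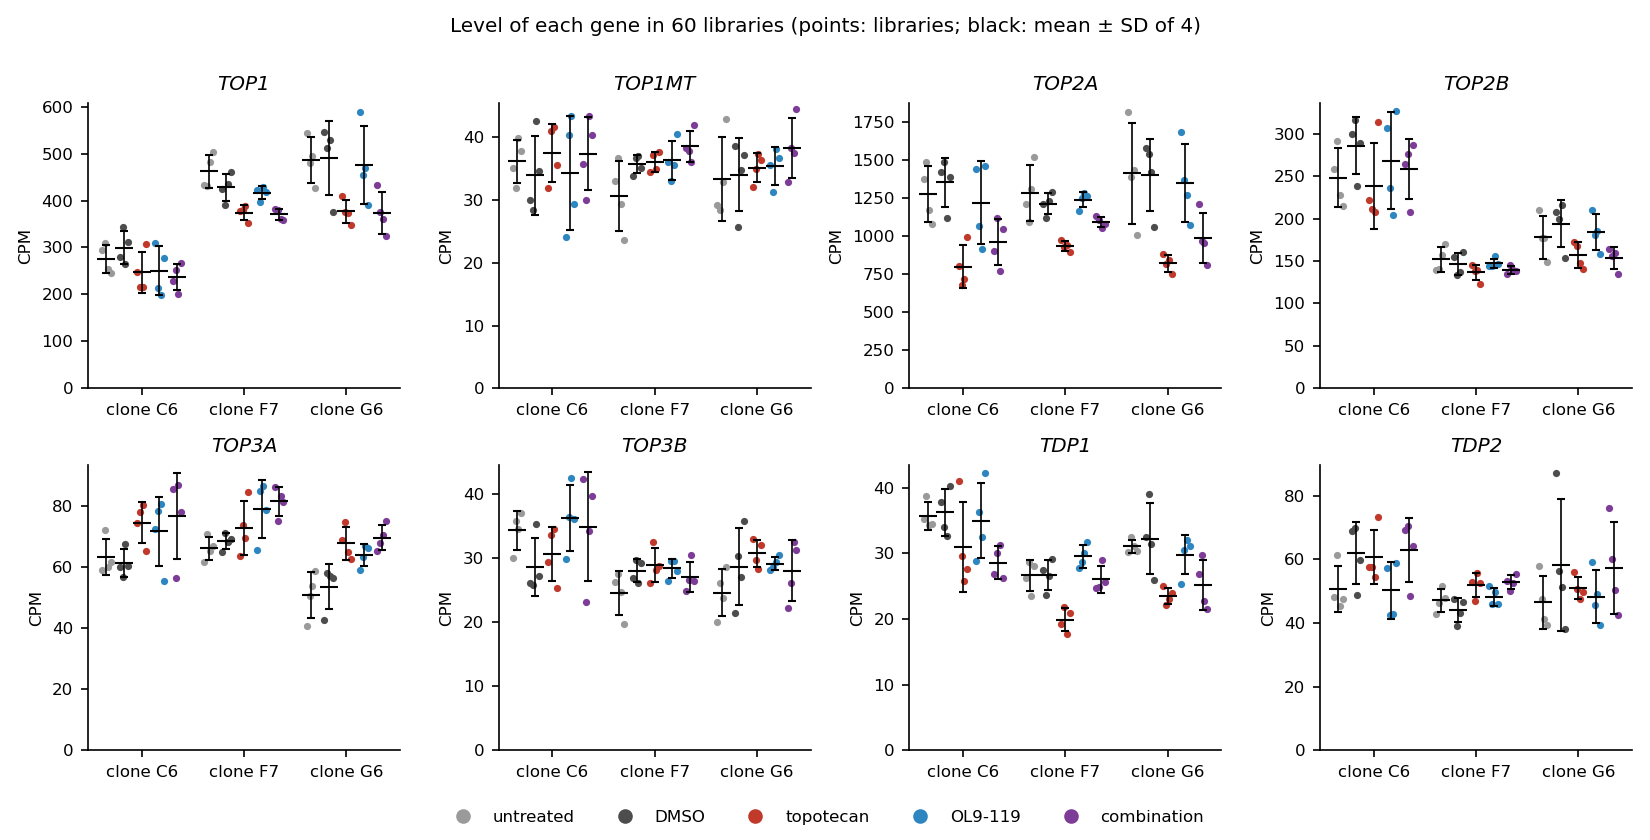
Level of each gene in CPM (vertical axes, from 0) in the 60 libraries, grouped by clone and coloured by treatment; points are libraries and black bars the mean ± SD of 4. TOP2A in topotecan lay below TOP2A in DMSO in all 3 clones, and TOP1 was lowest and TOP2B highest in clone C6.

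TDP1 (ENSG00000042088, chromosome 14, 89954939 to 90044768 on the plus strand, hg38 with the GENCODE 29 annotation) was counted in every knockout library. Its level ran from 17.8 to 42.3 CPM with a median of 28.9 CPM over the 60 libraries. A count over the whole gene does not test whether the transcript can still make the enzyme, so these values check no label. In DMSO the 4 replicates stood at 37.9, 34.1, 32.6 and 40.3 CPM in C6, at 27.5, 23.7, 26.6 and 29.2 CPM in F7 and at 32.4, 39.1, 31.4 and 26 CPM in G6. In topotecan they stood at 41.03, 29.6, 25.8 and 27.6 CPM in C6, at 19.3, 21.8, 17.8 and 20.9 CPM in F7 and at 25.02, 22.1, 23.1 and 23.9 CPM in G6. The topotecan values lay below all DMSO values in F7 and G6, while in C6 replicate 1 in topotecan was above every DMSO library. Over the 3 clones TDP1 fell with topotecan by 0.37 ± 0.07 on the log2 scale (± SE here and for every log2 change; adjusted p = 5.3e-05, edgeR), to 0.774 of the DMSO level.

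With topotecan 5 of the 8 genes changed, 1 higher (TOP3A) and 4 lower (TOP2A, TDP1, TOP1 and TOP2B), against 15.3% of all genes tested. The median of the 8 log2 changes was -0.11, and that of all genes was 0.02. With OL9-119 1 of the 8 changed, TOP3A, which was higher, against 9.47% of all genes. With the combination 4 of the 8 changed, 1 higher (TOP3A) and 3 lower (TOP2A, TOP1 and TDP1), against 21.2% of all genes. These 3 comparisons share the same 12 DMSO libraries. The p-values measure the spread between cultures of a clone.

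**Figure D2:**
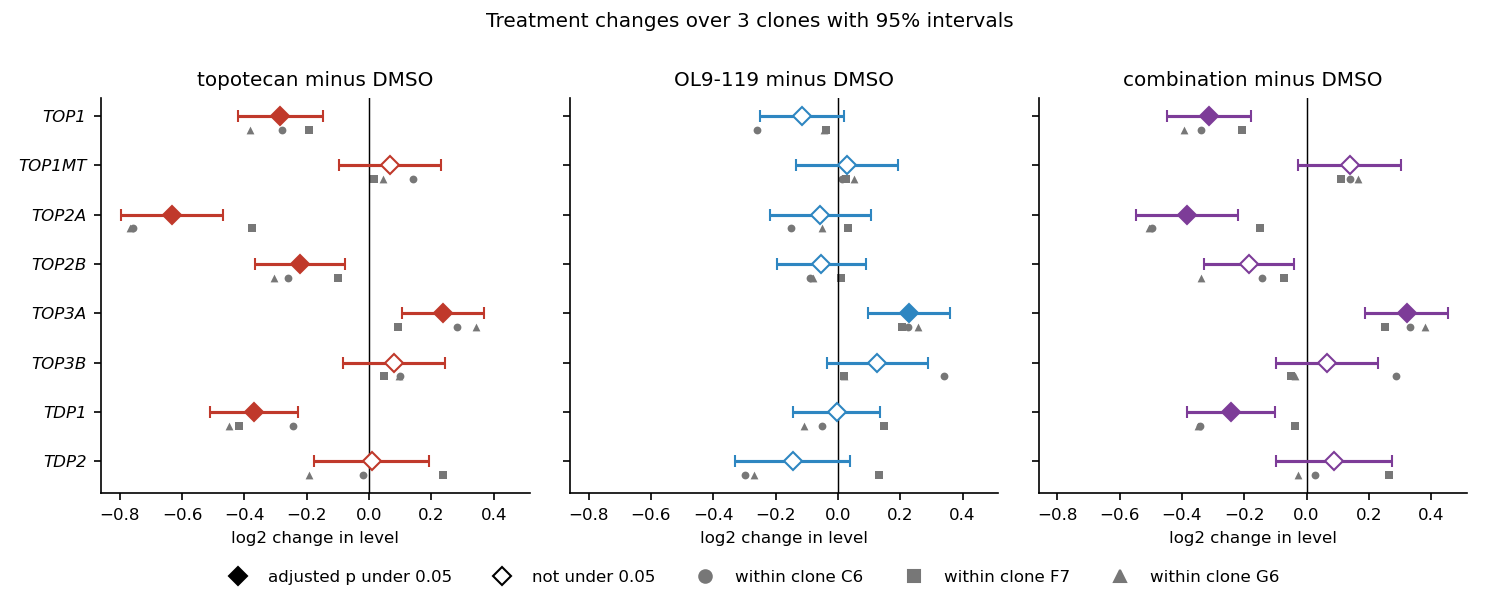
Log2 change of each gene (horizontal axis) against DMSO for the 3 treatments. Diamonds are the mean over 3 clones with 95% intervals, filled where the adjusted p is under 0.05, and small grey marks the change within each clone; TOP2A with topotecan is farthest to the left, at -0.63, and TOP3A is filled to the right of 0 in all 3 panels.

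TOP1 (ENSG00000198900, chromosome 20, 41028818 to 41124487, plus strand), the enzyme that topotecan traps, had a median of 408 CPM in DMSO (264 to 546 CPM, n = 12) and 362 CPM in topotecan (216 to 409 CPM, n = 12). In clone F7 the DMSO libraries held 424, 391, 435 and 461 CPM and the topotecan libraries 378, 379, 388 and 351 CPM, with no overlap. In C6 the DMSO libraries held 279, 344, 264 and 312 CPM and the topotecan libraries 247, 217, 216 and 308 CPM, and in G6 546, 512, 529 and 376 CPM against 409, 375, 373 and 349 CPM. In each of these clones 1 topotecan library lay within the DMSO range. TOP1 fell with topotecan by 0.28 ± 0.07 on the log2 scale (adjusted p = 0.00135), with a mean below DMSO in 3 of 3 clones. Without replicate 2 of every group the call was lost (adjusted p = 0.0519).

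With the combination the TOP1 median was 360 CPM (202 to 432 CPM), and TOP1 fell by 0.31 ± 0.07 on the log2 scale (adjusted p = 0.000311). In OL9-119 alone its median was 407 CPM (199 to 589 CPM), with a log2 change of -0.11 ± 0.07 (adjusted p = 0.348) and a 95% interval of -0.25 to 0.02. Without the 14 libraries of low gene detection that change was -0.20 (adjusted p = 0.00501). TOP1MT, the mitochondrial paralogue (ENSG00000184428, chromosome 8, 143304384 to 143359979, minus strand), had medians of 34.98 CPM in DMSO, 36.002 in topotecan, 35.8 in OL9-119 and 38.1 in the combination. Its log2 changes were 0.07, 0.03 and 0.14, each with an SE of 0.08, and none passed the test.

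TOP2A (ENSG00000131747, chromosome 17, 40388516 to 40417950, minus strand), which separates sister chromatids and peaks in cells about to divide, showed the largest treatment change of the 8. In DMSO the replicates held 1420, 1487, 1117 and 1386 CPM in C6, 1209, 1120, 1227 and 1291 CPM in F7 and 1578, 1538, 1420 and 1060 CPM in G6. In topotecan they held 806, 677, 718 and 996 CPM in C6, 974, 925, 941 and 897 CPM in F7 and 882, 815, 840 and 750 CPM in G6. The groups did not overlap in any of the 3 clones. TOP2A fell by 0.63 ± 0.08 on the log2 scale (adjusted p = 1.36e-08), to 0.645 of the DMSO level. Within clones the log2 change was -0.76 ± 0.14 in C6, -0.38 ± 0.14 in F7 and -0.77 ± 0.14 in G6.

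In the combination TOP2A held 904, 1115, 773 and 1046 CPM in C6, 1129, 1107, 1053 and 1076 CPM in F7 and 1211, 964, 957 and 811 CPM in G6. In C6 all 4 values were below DMSO, and in F7 and G6 the groups overlapped. TOP2A fell by 0.38 ± 0.08 on the log2 scale against DMSO (adjusted p = 0.000232). In OL9-119 alone the median was 1264 CPM (914 to 1686 CPM) against 1338 CPM in DMSO (1060 to 1578 CPM), with a log2 change of -0.06 ± 0.08 (adjusted p = 0.780).

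TOP2B (ENSG00000077097, chromosome 3, 25597905 to 25664907, minus strand) had a median of 204 CPM in DMSO (133 to 316 CPM) and 158 CPM in topotecan (123.4 to 313 CPM). The groups overlapped in all 3 clones, while the mean was lower in topotecan in each. TOP2B fell by 0.22 ± 0.07 on the log2 scale (adjusted p = 0.0254). The call was lost when any 1 of 7 of the 24 libraries was left out (C6 DMSO replicate 2, F7 DMSO replicate 4, G6 DMSO replicate 3, C6 topotecan replicates 2 and 3, and replicate 4 of F7 and G6 in topotecan), with adjusted p up to 0.0676. It was also lost without replicate 1, 2 or 3 of every group (adjusted p up to 0.163) and without clone C6 (adjusted p = 0.0626), and against untreated cells the log2 change was -0.13 (adjusted p = 0.274). With the combination TOP2B was at -0.18 ± 0.07 (adjusted p = 0.0590), which passed without the libraries of low gene detection (-0.23, adjusted p = 0.00666), without clone C6 (0.0449) and in 6 of 24 fits without 1 library. The gene RARB overlaps TOP2B on the opposite strand at 4.68 CPM on average, and the strand setting of the counting is not given in the sources used here.

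The promoters of the type II genes are shown because TOP2A fell most and fell together with G2/M genes. RefSeq promoter windows (GRCh38.p14, 250 bases before to 50 after the gene start) were matched for 7 of the 8 genes, all but TOP1MT. The CCAAT box, searched as CCAAT on both strands and so also as ATTGG, is a motif of many cell cycle promoters. At least 1 match was found in 34.6% of all 35116 promoters in the table, and at least 4 in 0.99%. TOP2A has 4 matches and 1 of the 2 windows of TOP2B has 2, while TOP1, TOP3A, TOP3B, TDP1 and TDP2 have 0. Other motifs were searched too, among them TTTGAA, the cell cycle homology region, found in 15.2% of all promoters. TOP2A has 2 matches to it, TDP1 has 1 and 1 window of TOP2B has 1, while TOP1, TOP3A, TOP3B and TDP2 have 0. The 250 bases before the start of TOP2A and TOP2B are shown, 5′ to 3′ on the minus strand, with the CCAAT matches in capitals (chr17:40417897-40418146 for TOP2A and chr3:25664908-25665157 for TOP2B).
TOP2A: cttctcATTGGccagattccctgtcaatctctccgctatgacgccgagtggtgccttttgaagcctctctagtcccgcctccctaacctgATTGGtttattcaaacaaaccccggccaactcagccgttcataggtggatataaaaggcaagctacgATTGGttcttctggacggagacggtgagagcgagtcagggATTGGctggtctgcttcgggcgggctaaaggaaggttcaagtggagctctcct
TOP2B: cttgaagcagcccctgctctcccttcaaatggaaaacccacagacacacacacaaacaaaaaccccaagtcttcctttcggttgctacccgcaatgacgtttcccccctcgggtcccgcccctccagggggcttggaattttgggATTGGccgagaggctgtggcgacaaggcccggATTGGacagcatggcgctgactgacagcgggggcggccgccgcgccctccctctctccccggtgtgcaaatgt

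Of a list of 20 G2/M genes, which cells use to enter and pass mitosis, 17 had a promoter in the table and 15 of these held at least 1 CCAAT match (88.2%), 10 of them 2 or more. Among 9 of the 10 condensin and chromosome genes that work beside TOP2A, 5 had a match (55.6%). Other lists of partner genes had shares of 37.5% to 80.0%, the highest in 4 of 5 partners of TOP3A and TOP3B, each with 2 or more, and 66.7% in 6 genes of TOP2 lesions and end joining. TTTGAA was found in 88.9% of the condensation genes and 64.7% of the G2/M genes with a promoter, and in at most 33.3% of any other list. For a list, each gene was counted by its window with the most matches. The 34.6% (CCAAT) and 15.2% (TTTGAA) of all promoters count single windows, so the 2 kinds of share are not alike. A match in these letters is a description of the sequence and not a measured binding site.

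Both lists were also set beside TOP2A in level. Of the 20 G2/M genes 20 fell, with a median log2 change of -0.62 (-0.97 to -0.23), and the kinase AURKA at -0.85 ± 0.04, cyclin CCNB1 at -0.59 ± 0.04, the checkpoint kinase BUB1B at -0.70 ± 0.05 and the centromere histone CENPA at -0.91 ± 0.07 had the smallest p. Of the 10 condensation genes 8 fell and 0 rose (median -0.33), among them the chromokinesin KIF4A at -0.56 ± 0.05, the proliferation marker MKI67 at -0.49 ± 0.05, and the condensin subunits NCAPD2 at -0.36 ± 0.04 and NCAPH at -0.35 ± 0.05. TOP2A was at -0.63. With the combination 20 of 20 G2/M genes fell (median -0.66), AURKA at -0.79 ± 0.04, CCNB1 at -0.65 ± 0.04 and KIF20A at -0.80 ± 0.05 among them, where TOP2A was at -0.38. Of the condensation genes 7 of 10 fell (median -0.22), NCAPD2 and MKI67 both at -0.50 and KIF4A at -0.45 ± 0.05 among them. With OL9-119 6 of 20 G2/M genes fell (median -0.17), led by KIF20A at -0.35 ± 0.05, CCNB1 at -0.19 ± 0.04, AURKA at -0.19 ± 0.04 and ASPM at -0.40 ± 0.11, and 2 of 10 condensation genes, MKI67 at -0.23 ± 0.05 and NCAPD2 at -0.12 ± 0.04. All 18985 genes had medians of 0.02 with topotecan, 0.01 with OL9-119 and -0.01 with the combination. The shares of them called were 15.3%, 9.47% and 21.2%. The part of cell cycle phase in the TOP2A change was not tested.

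TOP3A (ENSG00000177302, chromosome 17, 18271428 to 18315007, minus strand) was the only one of the 8 that rose, and it did so in all 3 treatments. In DMSO it held 59.96, 56.6, 67.5 and 60.3 CPM in C6, 64.8, 71.2, 68.2 and 69.2 CPM in F7 and 42.7, 58.1, 56.9 and 56.4 CPM in G6. In topotecan it held 74.3, 77.8, 80.3 and 65.1 CPM in C6, 63.5, 73.6, 69.3 and 84.5 CPM in F7 and 68.6, 74.7, 64.9 and 62.5 CPM in G6. The groups were separate in G6 and overlapped in C6 and F7. TOP3A rose by 0.24 ± 0.07 on the log2 scale with topotecan (adjusted p = 0.00663), and without replicate 2 of every group the call was lost (adjusted p = 0.0572).

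In OL9-119 TOP3A held 72.2, 78.2, 80.4 and 55.4 CPM in C6, 65.4, 84.8, 86.4 and 78.6 CPM in F7 and 58.8, 63.2, 66.9 and 66.2 CPM in G6. Here too G6 alone showed no overlap with DMSO, and TOP3A rose by 0.23 ± 0.07 on the log2 scale (adjusted p = 0.0155). The call was lost without replicate 2 or without replicate 3 of every group, with an adjusted p of up to 0.169. In the combination the values were 85.5, 56.2, 86.8 and 77.9 CPM in C6, 86.2, 75.1, 83.0 and 81.3 CPM in F7 and 65.03, 67.8, 70.4 and 74.8 CPM in G6, above all DMSO values in F7 and G6. The rise was 0.32 ± 0.07 on the log2 scale (adjusted p = 0.000143), and the mean was above DMSO in 3 of 3 clones for each treatment.

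TOP3B (ENSG00000100038, chromosome 22, 21957025 to 21982816, minus strand) had medians of 27.2 CPM in DMSO, 29.6 CPM in topotecan, 29.6 CPM in OL9-119 and 28.6 CPM in the combination. Its log2 changes were 0.08, 0.13 and 0.07, each with an SE of 0.08, and did not pass the test. The processed pseudogene TOP3BP1 held at most 1 count in a library, and PPM1F-AS1, on the opposite strand, stood at 1.27 CPM on average. How reads that match both TOP3B and its pseudogene were counted is not given in the sources used here. Of 7 partners of TOP3A and TOP3B, 2 rose with topotecan and 0 fell (beside 15.3% of all genes): RPA2, which binds single-stranded DNA, by 0.15 ± 0.04 and RMI2, a subunit of the BLM complex, by 0.17 ± 0.06 on the log2 scale. Both also rose with the combination, by 0.13 ± 0.04 and 0.21 ± 0.06, and with OL9-119 0 of 7 passed the test.

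TDP2 (ENSG00000111802, chromosome 6, 24649977 to 24667033, minus strand) had a median of 50.1 CPM in DMSO (38.3 to 87.2 CPM), 53.7 CPM in topotecan (46.8 to 73.2 CPM), 47.5 CPM in OL9-119 (39.4 to 59.1 CPM) and 54.4 CPM in the combination (42.5 to 76.1 CPM). The widest group was G6 in DMSO, at 87.2, 56.4, 51.2 and 38.3 CPM. The library at 87.2 CPM, replicate 1, was among the 14 of low gene detection. The log2 changes were 0.01, -0.15 and 0.09, each with an SE of 0.09, and did not pass the test. The 95% intervals ran from -0.18 to 0.19, from -0.33 to 0.04 and from -0.10 to 0.27, so that changes within these intervals are not excluded. Against untreated cells in place of DMSO the combination gave 0.26 for TDP2, which passed (adjusted p = 0.0334).

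For TDP1 the other treatments differed. In OL9-119 it held 28.8, 36.3, 32.5 and 42.3 CPM in C6, 27.7, 28.7, 30.1 and 31.7 CPM in F7 and 25.4, 30.5, 32.1 and 31.2 CPM in G6, overlapping DMSO in all 3 clones (log2 change 0.00 ± 0.07, adjusted p = 0.986). In the combination it held 26.9, 29.999, 31.3 and 26.2 CPM in C6, 24.7, 24.8, 28.9 and 25.6 CPM in F7 and 26.9, 29.8, 22.8 and 21.5 CPM in G6. C6 lay wholly below DMSO, and TDP1 fell by 0.24 ± 0.07 on the log2 scale (adjusted p = 0.00745). The call was lost without the libraries of low gene detection (-0.19, adjusted p = 0.0664), without clone C6 (-0.19, adjusted p = 0.0956), with library totals alone (-0.17, adjusted p = 0.0665), with no filter on low counts (adjusted p = 0.104) and without replicate 1 or replicate 4 of every group (adjusted p up to 0.0847).

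The combination was set against each compound alone. Against topotecan 1 of the 8 genes changed (6.78% of all genes): TOP2A was higher by 0.25 ± 0.08 on the log2 scale (adjusted p = 0.0491), with all values above topotecan in F7 and overlap in C6 and G6. That call was lost in 21 of the 24 fits that left out 1 library, being kept only without C6 topotecan replicate 4, C6 combination replicate 3 or G6 combination replicate 4, and its adjusted p reached 0.142. It was also lost without replicate 1, 2 or 3 of every group (adjusted p up to 0.410), without clone C6 (adjusted p = 0.145) and without the libraries of low gene detection (adjusted p = 0.160). Of the 9 settings other than leaving out a library or replicate number, only the last 2 lost the call. The log2 difference ran from 0.18 to 0.28 over these 9. Taken by clone and replicate number, TOP2A was higher in the combination than in topotecan in 12 of 12 pairs. The labels do not say that a number marks a pair, and the reported fit did not use it.

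Against OL9-119 3 of the 8 were lower in the combination and 0 higher (12.7% of all genes). The log2 difference was -0.33 ± 0.08 for TOP2A (adjusted p = 0.00269), -0.24 ± 0.07 for TDP1 (adjusted p = 0.0129) and -0.20 ± 0.07 for TOP1 (adjusted p = 0.0409). The TOP1 call was lost in 8 of 24 fits that left out 1 library: replicates 1 and 4 of C6, 4 of F7 and 1 of G6 in OL9-119, and replicate 3 of C6, 2 of F7 and 2 and 4 of G6 in the combination (adjusted p up to 0.138). It was also lost without replicate 1, 2 or 3 of every group (adjusted p up to 0.322), with DESeq2 (0.0609), with RLE scaling (0.0743), with only the groups compared (0.0887) and without the libraries of low gene detection (0.0645). The TDP1 call was lost without clone C6 (adjusted p = 0.0838), without the libraries of low gene detection (0.0643), with no filter on low counts (0.132) and without replicate 3 or 4 of every group (up to 0.305). TDP2 was at 0.23 ± 0.09 and did not pass (adjusted p = 0.0904), but it passed with DESeq2 (0.0499), library totals alone (0.0373) and no filter on low counts (0.0314). It also passed without G6 OL9-119 replicate 1, C6 combination replicate 3 or G6 combination replicate 4 (adjusted p down to 0.0264). Taken by clone and replicate number, TDP2 was higher in the combination than in OL9-119 in 12 of 12 pairs.

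Departure of the combination from the sum of both log2 changes was tested as an interaction, for which 0 of 8 genes passed in edgeR and 0 in DESeq2 (0.0316% of all genes in edgeR). At an unadjusted p under 0.05 there was 1 gene, TOP2A, with an interaction of 0.31 ± 0.11 on the log2 scale, a 95% interval of 0.08 to 0.54 and an adjusted p of 0.737. DMSO minus untreated gave 0 of 8 in both tools (0.0158% of all genes in edgeR), with 0 at an unadjusted p under 0.05, and the largest of the 8 log2 changes was TDP2 at 0.17 ± 0.09. Dependence of a treatment change on the clone passed for 0 of 8 in both tools for topotecan (0.137% of all genes), OL9-119 (0.0263%) and the combination (0.169%), again with 0 at an unadjusted p under 0.05. The smallest such p was 0.0884, for TOP2A with topotecan.

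Clones were compared without topotecan or OL9-119, where each had 8 libraries, 4 untreated and 4 in DMSO. TOP1 held 246 to 344 CPM in C6 (median 287), 391 to 503 CPM in F7 (median 435) and 376 to 546 CPM in G6 (median 504). All 8 libraries of C6 were below all 16 of F7 and G6. The log2 difference was -0.63 ± 0.08 for C6 minus F7 (adjusted p = 5.22e-09), -0.77 ± 0.08 for C6 minus G6 (adjusted p = 4.28e-11) and 0.14 ± 0.08 for G6 minus F7 (adjusted p = 0.216). The last passed without replicate 4 of every group, and ran from 0.06 to 0.26 when a replicate number was left out.

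Genes around TOP1 were counted in the same comparisons, a check chosen after its level had been seen. The 6 protein-coding genes tested within 1 Mb of it had a median log2 difference of -0.25 for C6 minus F7 and -0.81 for C6 minus G6, and the other 395 protein-coding genes tested on chromosome 20 had medians of -0.58 and -0.54. All protein-coding genes had medians of 0.01 and 0.00. The number of gene copies was not measured, and its part in the TOP1 difference was not tested.

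TOP2B, unlike TOP1, was highest in C6. It held 215 to 316 CPM in C6 (median 274), 133 to 170 CPM in F7 (median 147) and 148 to 216 CPM in G6 (median 189). C6 and F7 did not overlap, and the lowest library of C6 lay just under the highest of G6. TOP2B was higher in C6 than in F7 by 0.84 ± 0.09 (adjusted p = 9.67e-12) and than in G6 by 0.52 ± 0.09 (adjusted p = 3.08e-06), and the log2 difference of G6 minus F7 was 0.32 ± 0.09 (adjusted p = 0.00384). The last was lost without replicate 1 or replicate 2 of every group (adjusted p up to 0.0927) and in untreated libraries alone (0.219). The 811 other protein-coding genes tested on chromosome 3 had medians of 0.05, 0.01 and 0.04 in these comparisons.

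TOP2A did not pass in any pair of clones, with log2 differences of 0.08, -0.10 and 0.17, each with an SE of 0.10. The last, G6 minus F7, passed without G6 untreated replicate 4 (0.24, adjusted p = 0.0473) and without replicate 4 of every group (0.36, adjusted p = 0.00169). Its level per kb was 4.41 to 4.98 times that of TOP2B in C6 (median 4.61), 7.28 to 8.39 times in F7 (median 7.86) and 6.18 to 8.12 times in G6 (median 7.18). C6 thus lay below the other clones in each library.

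**Figure D3:**
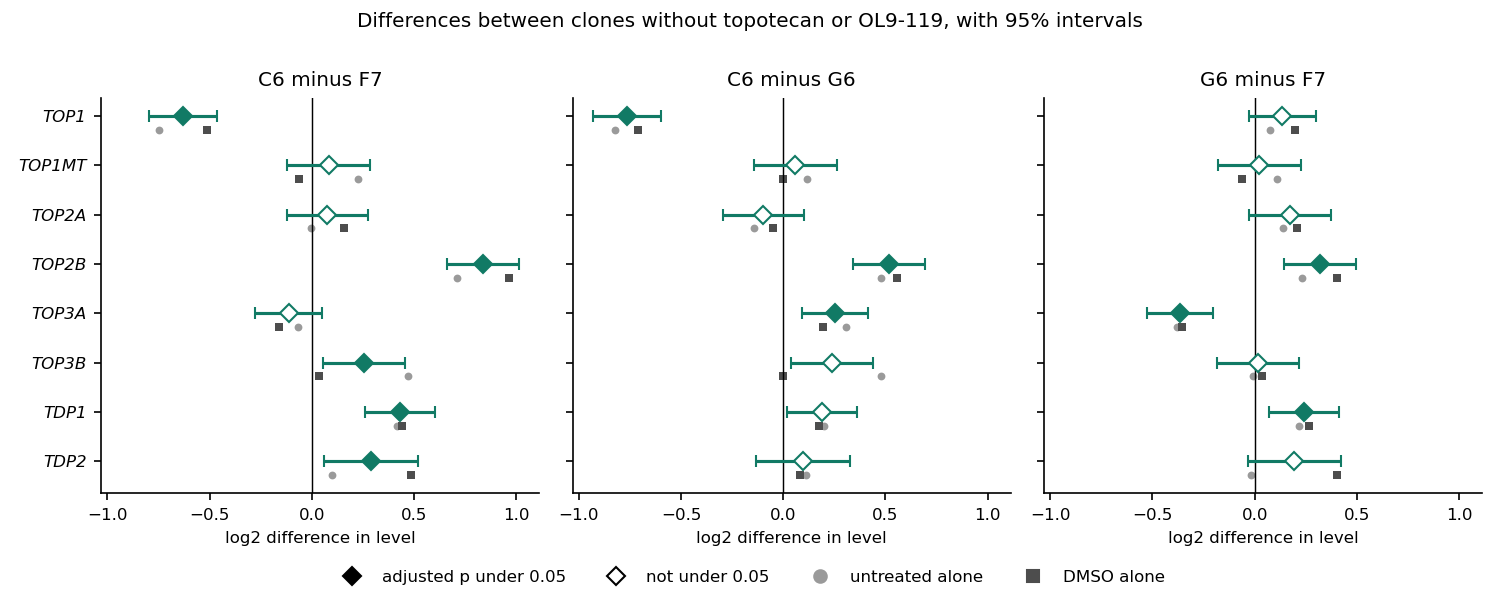
Log2 difference of each gene (horizontal axis) between pairs of clones over untreated and DMSO libraries, with 95% intervals; diamonds are filled where the adjusted p is under 0.05, and grey marks give untreated and DMSO libraries alone. TOP1 lies left of 0 and TOP2B right of 0 for C6 against both other clones.

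TDP1 held 32.6 to 40.3 CPM in C6 (median 34.8), 23.4 to 29.2 CPM in F7 (median 27.1) and 26 to 39.1 CPM in G6 (median 31.3). C6 lay wholly above F7. The log2 difference of C6 minus F7 was 0.43 ± 0.09 (adjusted p = 2.9e-05), while C6 against G6 did not pass (0.19 ± 0.09, adjusted p = 0.0783). G6 was above F7 by 0.24 ± 0.09 (adjusted p = 0.0246), a call lost when F7 DMSO replicate 2, F7 untreated replicate 3 or G6 DMSO replicate 1 or 2 was left out (adjusted p up to 0.0899). That call was also lost with RLE scaling (0.0545), library totals alone (0.0958), no filter on low counts (0.193), in DMSO (0.123) or untreated libraries alone (0.239), and without replicate 1, 2 or 3 of every group (up to 0.256). The other 463 protein-coding genes tested on chromosome 14 had medians of 0.32 for C6 minus F7, 0.03 for C6 minus G6 and 0.30 for G6 minus F7.

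TOP3A was lowest in G6, at 40.5 to 58.6 CPM (median 55.0), with 56.6 to 71.9 CPM in C6 (median 60.1) and 61.6 to 71.2 CPM in F7 (median 67.5). F7 and G6 did not overlap. The log2 difference of G6 minus F7 was -0.37 ± 0.08 (adjusted p = 0.000296) and that of C6 minus G6 was 0.25 ± 0.08 (adjusted p = 0.0110). The latter was lost without G6 untreated replicate 1 (adjusted p = 0.0515), without the libraries of low gene detection (0.0739), with library totals alone (0.0738), in DMSO libraries alone (0.225) and without replicate 1 or 3 of every group (up to 0.133). The other 881 protein-coding genes tested on chromosome 17 had medians of -0.16 for G6 minus F7 and 0.10 for C6 minus G6.

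TOP3B and TDP2 passed only for C6 minus F7, at 0.25 ± 0.10 (adjusted p = 0.0301) and 0.29 ± 0.11 (adjusted p = 0.0298), and both calls were lost with DESeq2, RLE scaling and library totals alone (adjusted p up to 0.294 and 0.194). The TOP3B call was also lost with no filter on low counts (0.107) and without replicate 3 or 4 of every group (up to 0.302), and the TDP2 call without the libraries of low gene detection (0.0795) and without replicate 2 (0.344). The TOP3B difference was 0.47 in untreated libraries alone and 0.04 in DMSO alone, and the TDP2 difference 0.10 and 0.48. Each was lost in 5 of 16 fits that left out 1 library. For TOP3B these were C6 DMSO replicate 3, F7 DMSO replicates 1 and 3, and replicate 4 of C6 and F7 untreated (adjusted p up to 0.122), and for TDP2 C6 DMSO replicates 1 and 2, F7 DMSO replicate 2, C6 untreated replicate 2 and F7 untreated replicate 1 (adjusted p up to 0.0726). For C6 minus F7 the other 331 protein-coding genes tested on chromosome 22 (TOP3B) had a median of 0.14. The other 762 on chromosome 6 (TDP2) had a median of 0.20. In all 5 of the 8 genes passed for C6 minus F7 (50.3% of all genes), 3 for C6 minus G6 (37.3%) and 3 for G6 minus F7 (31.5%), and TOP1MT passed in none.

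Genes that work with the 8 in the repair of trapped topoisomerases were counted by role, and each count stands beside the 15.3% of all genes called with topotecan, 9.47% with OL9-119 and 21.2% with the combination. Of 10 genes of single-strand break repair downstream of TDP1, 2 rose with topotecan and 0 fell (2 of 10 beside 15.3% of all genes, median 0.04): the flap nuclease FEN1 by 0.23 ± 0.04 and the ligase LIG1 by 0.24 ± 0.07 on the log2 scale. With OL9-119 FEN1 fell by 0.29 ± 0.04, and the other 9 did not pass. With the combination PARP2 rose by 0.27 ± 0.06 and the end-binding factor APLF by 0.43 ± 0.15, while PARP1, the main sensor of strand breaks, fell by 0.12 ± 0.03.

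Of 13 nucleases that can cut at trapped topoisomerases, 1 rose with topotecan and 0 fell (beside 15.3% of all genes): APEX2, by 0.44 ± 0.06 on the log2 scale (adjusted p = 2.76e-07). APEX2 also rose with the combination, by 0.27 ± 0.06, as did RBBP8 by 0.32 ± 0.10 and EME1 by 0.25 ± 0.08, while ERCC1 fell by 0.29 ± 0.09. With OL9-119 only EME1 passed, at 0.30 ± 0.08 (beside 9.47% of all genes). The medians of this list were 0.00, 0.04 and -0.02 for topotecan, OL9-119 and the combination.

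Of 20 genes for the modification and breakdown of trapped topoisomerase I, 19 were tested. With topotecan 3 fell and 1 rose (4 of 19 beside 15.3% of all genes, median 0.02), the SUMO ligase PIAS1 by 0.39 ± 0.07 and the ubiquitin ligase scaffolds CUL3 by 0.29 ± 0.07 and CUL4A by 0.23 ± 0.06 on the log2 scale, and the protease FAM111A at 0.25 ± 0.08. With OL9-119 6 fell and 0 rose (beside 9.47%, median -0.09), among them the modifier SUMO2 at -0.35 ± 0.06 and the ligase RNF4 at -0.29 ± 0.05. With the combination 8 fell and 2 rose (beside 21.2%, median -0.13), RNF4 at -0.29 ± 0.05, SUMO2 at -0.31 ± 0.06, CUL3 at -0.28 ± 0.07 and the segregase VCP at -0.19 ± 0.05 having the smallest p.

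Of 8 genes that act with TDP2 or join double-strand breaks, 7 were tested, and 4 fell with topotecan (beside 15.3% of all genes, median -0.23): XRCC4 by 0.58 ± 0.12, the kinase PRKDC by 0.31 ± 0.05, and the Ku subunits XRCC5 by 0.29 ± 0.07 and XRCC6 by 0.11 ± 0.03 on the log2 scale. With the combination 4 fell and 1 rose (beside 21.2%, median -0.14), where XRCC4 was at -0.59 ± 0.12, PRKDC at -0.30 ± 0.05 and XRCC6 at -0.14 ± 0.03, and ZNF451, the SUMO ligase that assists TDP2, rose by 0.41 ± 0.09. With OL9-119 only XRCC6 passed, at -0.12 ± 0.03. Of 9 genes that maintain mitochondrial DNA beside TOP1MT, 2 rose with topotecan (beside 15.3% of all genes), the helicase TWNK by 0.33 ± 0.07 and the polymerase POLG by 0.20 ± 0.07. With the combination TWNK at 0.20 ± 0.07 and MGME1 at 0.16 ± 0.06 rose and SSBP1 fell by 0.19 ± 0.07, and with OL9-119 SSBP1 fell by 0.25 ± 0.07 and PRIMPOL rose by 0.31 ± 0.10.

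**Figure D4:**
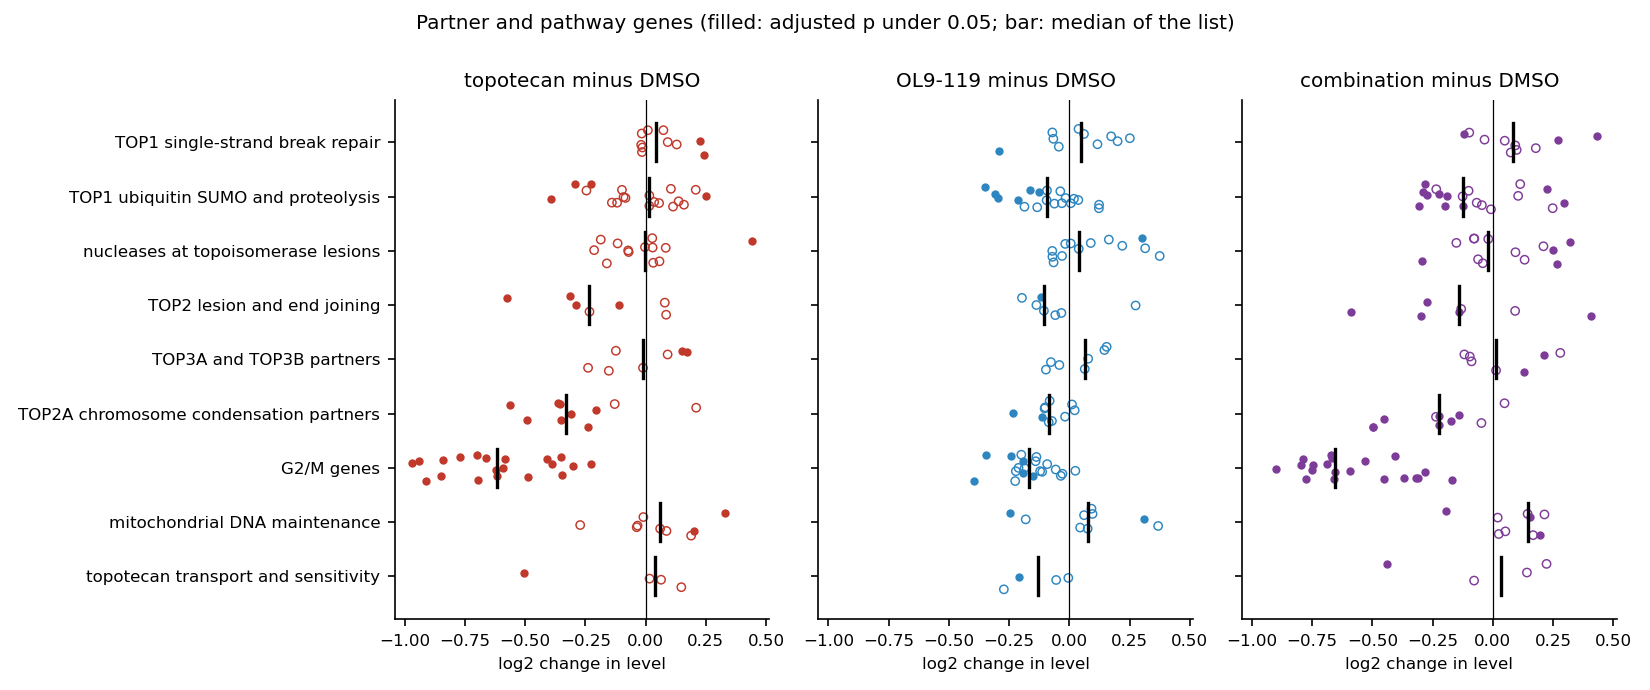
Log2 change (horizontal axis) of the tested genes of 9 lists against DMSO in the 3 treatments; points are genes, filled where the adjusted p is under 0.05, and the bar is the median of the list. All 20 G2/M genes lie left of 0 with topotecan (median -0.62), and the repair lists lie around 0 with topotecan except that of TOP2 lesions and end joining (median -0.23).

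Changes with topotecan varied with the length of a gene, so the 8 genes were set against genes of like span from start to end. Over 14685 protein-coding genes the median log2 change with topotecan was 0.12 under 10 kb, 0.09 at 10 to 30 kb, -0.01 at 30 to 100 kb, -0.16 at 100 to 200 kb and -0.36 over 200 kb. The spans of the 8 lay between 17.1 kb (TDP2) and 95.7 kb (TOP1). TOP2A, of 29.4 kb, was 0.73 under the median of its span class, and 1.11% of the 4071 genes in the class had a lower value. TDP1 (89.8 kb) and TOP1 were 0.36 and 0.27 under the median of the 4774 genes of 30 to 100 kb, where 3.41% and 5.97% of genes lay lower. TOP2B was 0.21 under it, with 10.1% of genes lower, and TOP3A 0.25 above it, with 89.9% of genes lower. Genes of the partner lists, those of end joining included, and ABCC4 were not set against genes of like span.

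**Figure D5:**
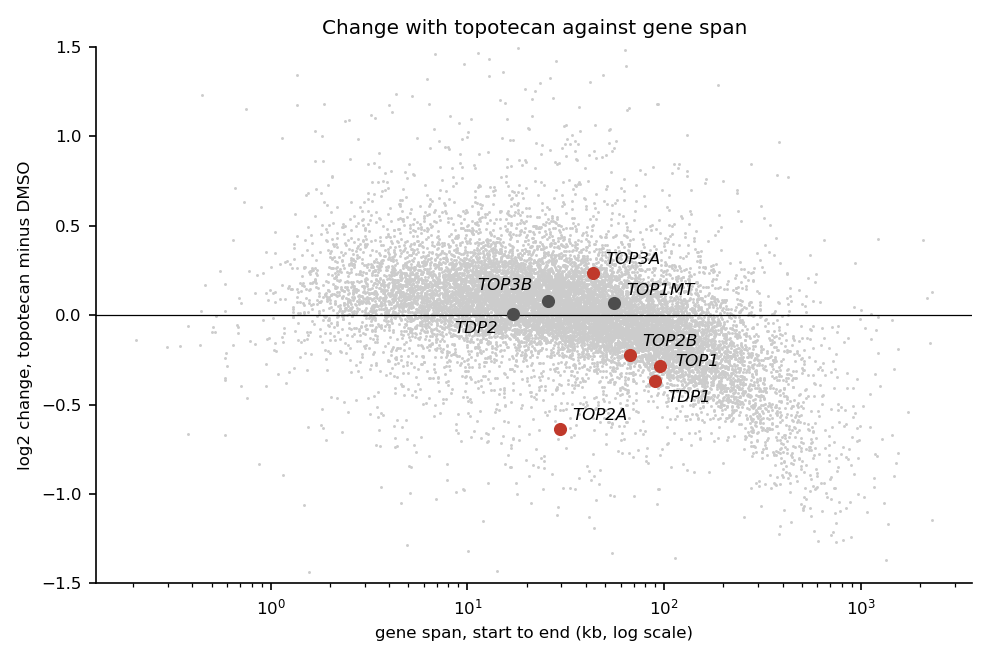
Log2 change with topotecan (vertical axis) against gene span in kb (horizontal log axis) for 14685 protein-coding genes in grey, of which 27 lie outside the plotted range of ±1.5. The 8 genes are marked, in red where the adjusted p is under 0.05; TOP2A lies 0.73 under the median of genes of 10 to 30 kb.

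Genes most like each member were sought by Pearson's r over the 15 group means, among 9147 protein-coding genes whose log2 CPM averaged 4 or more. The 15 groups differ by clone as well as by treatment, so r mixes both kinds of difference. These means come from the same libraries as every result above, so r is a description. For TOP2A they were GPSM2 (r = 0.98), KIF4A (0.97) and CENPF (0.96), and over the 60 libraries r was 0.91, 0.88 and 0.94. For TOP1 they were CAPRIN1 and CSNK2A1 (both 0.98) and BMERB1 (0.98), at 0.97, 0.94 and 0.79 over libraries. For TOP2B they were PRKACB, ZC3H13 (both 0.99) and PCGF5 (0.98), all at 0.93 or more over libraries. TOP3A was most like AMMECR1L, CHTOP (both 0.93) and RTKN (0.92), at 0.62, 0.71 and 0.62 over libraries. TDP1 was most like RAB28, CDK14 and EPS15 (all 0.94), at 0.68, 0.79 and 0.75. TDP2 was most like DGKE, LYSMD3 and SMIM15 (all 0.92), at 0.80, 0.88 and 0.83. TOP3B was most like DVL3 (0.92), CCDC92 (0.90) and ZNF71 (0.90), at 0.71, 0.65 and 0.71. For TOP1MT, whose group means varied least, the leading gene SRRM1 had r = 0.81 over group means and -0.08 over libraries.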

How the data were processed

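Poly(A) RNA was sequenced from 60 libraries of HEK293A TDP1-knockout cells in 15 groups of 3 clones and 5 treatments, with 4 biological replicates each. The authors deposited raw counts, 1 row per Ensembl gene and 1 column per library. FastQC 0.11.9, STAR 2.7.8, Picard 2.26.6 and hg38 are named in the submitters' processing notes. How genes were counted (tool, annotation, strand) is not stated there. Of the 58395 identifiers, 58275 were found in GENCODE 29, which gave positions and lengths, and 57754 had a current symbol. Library totals were 4.62 to 20.9 M counts, which sets the counting error.

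Low counts were filtered with filterByExpr over the 15 groups, and the 18985 genes left were fitted in edgeR 4.0.16 and R 4.3.3 (quasi-likelihood F test, 2-sided, TMM scaling, 1 mean per group, all 60 libraries in 1 fit). A treatment comparison is the mean of the differences within the 3 clones, and a clone comparison the mean of those in untreated and DMSO libraries. Adjusted p are Benjamini-Hochberg values over all genes tested in a comparison, with a threshold of 0.05. CPM values use TMM library sizes, and log2 CPM a prior count of 2. Values after ± are SDs beside a level and SEs beside a log2 change. The fitting was tested on simulated data. The alternatives were DESeq2 1.42.0, RLE scaling, library totals alone, no filter on low counts, a replicate block, the prefix of the library name as a term, no low-detection libraries, untreated cells in place of DMSO, only the groups compared, and leaving out each library or replicate number. Leaving out clone C6 was added after seeing the data.

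The 8 genes and the lists of partner genes were chosen with earlier results of these data known. Named genes are the 8, up to 4 passing genes of the smallest p from each list in each treatment minus DMSO, and for each of the 8 the 3 genes most like it. Some genes that this rule names are not reported here. Promoters come from RefSeq (GRCh38.p14).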

Additional observations from a re-analysis of the deposited data

Results flagged for a closer look

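In 120 sets of 4 replicates (8 genes in 15 groups) the gap of the highest or lowest library to the next was set against the range of the 4, by Dixon's test at the 95% level. Chance alone passes about 1 set in 20, and 3 passed. TOP2B stood at 313 CPM in C6 topotecan replicate 4, where the other replicates held 222, 211 and 207 CPM. TOP3A stood at 42.7 CPM in G6 DMSO replicate 1, where the other replicates held 58.1, 56.9 and 56.4 CPM. TOP3B stood at 35.3 CPM in C6 DMSO replicate 3, where the other replicates held 26.2, 25.8 and 27.2 CPM. Without that library the TOP3B difference between C6 and F7 was no longer past the threshold. C6 topotecan replicate 4 (18472 genes) and G6 DMSO replicate 1 (18440 genes) were among the 14 libraries of low gene detection. C6 DMSO replicate 3 (21470 genes) was not.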

How the results depend on the processing

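Over all settings run, the calls of TOP2A and TDP1 with topotecan, of TOP1, TOP2A and TOP3A with the combination, of TOP2A between the combination and OL9-119, of TOP1, TOP2B and TDP1 for C6 minus F7, of TOP1 and TOP2B for C6 minus G6 and of TOP3A for G6 minus F7 were kept. Of the 8 genes, 2 were called with OL9-119 without low-detection libraries (1 as reported). For the combination against topotecan 0 were called without those libraries and 0 without clone C6 (1 as reported), and for the combination against OL9-119 1 without those libraries (3 as reported). With no filter on low counts the interaction called 1, TOP2A (0 as reported). DESeq2 and RLE scaling called 3 and 3 for C6 minus F7 (5 as reported), and untreated libraries alone 1 for G6 minus F7 (3 as reported). The cause of these changes was not tested. Leaving out a replicate number or a library gave 2 to 5 genes for topotecan, 0 to 1 for OL9-119, 3 to 5 for the combination, 0 to 1 for the combination against topotecan, 1 to 3 against OL9-119, 4 to 5 for C6 minus F7, 2 to 4 for C6 minus G6 and 1 to 6 for G6 minus F7. DMSO minus untreated, the interaction and clone dependence stayed at 0 there. TOP3B for C6 minus G6 (0.24, adjusted p = 0.0556) was -0.000767 in DMSO libraries alone and 0.477 in untreated libraries alone, where it passed (adjusted p = 0.00949), as it did with a replicate block (0.0459), without replicate 4 (0.0195) and in 3 fits without 1 library. TDP2 for G6 minus F7 was -0.00524 without low-detection libraries, -0.0163 in untreated libraries alone and -0.0114 to 0.338 when replicates were left out (0.19 with all libraries, not past the threshold). It passed without G6 DMSO replicate 4 (adjusted p = 0.0417, edgeR) and without replicate 4 of every group. Of 44 values past the threshold in no setting, 25 changed sign in at least 1.

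The deviations of same-numbered libraries had median correlations of 0.0467 for topotecan, 0.0573 for OL9-119 and 0.0235 for the combination, each with DMSO, against -0.0242, -0.0178 and -0.00745 for libraries of other numbers. The correlation was over 0.1 in 3, 5 and 4 of 12 pairs, and a library matched its own number best in 8, 6 and 6 of 12 cases, a hint from the data. All 5 treatments of a clone and number also share the prefix of the library name, which the labels do not explain. Not every pair was over 0.1, which does not exclude pairing. The reported fit treated the libraries as unpaired, and a replicate block was run as an alternative. With a replicate block the genes called went from 2913 to 3843 for topotecan, from 4033 to 4931 for the combination and from 1287 to 2455 for the combination against topotecan, and TOP2B with the combination (adjusted p = 0.00652) and TDP2 for the combination against OL9-119 (0.00563) passed. Over all genes, calls with OL9-119 ran from 858 to 2820 (1798 as reported), for the combination against topotecan from 513, for DMSO minus untreated from 0 to 16 (3 as reported), and for the interaction from 1 to 40 (6 as reported). Untreated libraries alone called 6201 genes for C6 minus F7, 4259 for C6 minus G6 and 3170 for G6 minus F7 (9554, 7078 and 5986 as reported). Clone dependence ran from 11 to 52 genes for topotecan, 0 to 9 for OL9-119 and 9 to 52 for the combination (26, 5 and 32 as reported). Library totals alone moved the median of all genes for C6 minus F7 from -0.04 to -0.16.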

Other observations

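Of 4 genes for the transport of topotecan or the sensitivity to it, ABCC4, an efflux pump, fell with topotecan by 0.50 ± 0.05 and with the combination by 0.44 ± 0.05 on the log2 scale (adjusted p = 1e-10 and 3.63e-09, edgeR). SLFN11, which stops damaged replication forks, fell with OL9-119 by 0.21 ± 0.06 (adjusted p = 0.0117). Thus 1 of the 4 passed in each comparison, beside 15.3% of all genes with topotecan, 9.47% with OL9-119 and 21.2% with the combination. Of 3 topoisomerase-related genes only TOPBP1 was tested, and it did not pass in any of the 3 comparisons.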
